A study of Mus musculus with 38 samples.

Results

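The samples described here are terminally exhausted CD8+ T cells (Tterm) that the mouse itself had made, sorted from melanomas grown in aged or in young animals, and profiled by ATAC-seq. Of the 38 samples in the series, 8 are such libraries, and they were chosen by their labels alone. The aged group held 3 libraries from mice aged 64-68 weeks, and the young group held 5 libraries from mice aged 10-12 weeks. Mice of both groups were wild type on the C57BL/6J background and carried B16-OVA tumours, a melanoma line that expresses ovalbumin, for 15 days before sorting. Tterm were gated as Slamf6- Tim-3+ cells. The same table also holds endogenous Tprog (the Slamf6+ Tim-3- progenitor gate, 3 aged and 4 young libraries) and 2 libraries of aged Tadys (Slamf6- Tim-3-). A second table, normalized apart, holds OT-1 Tterm, which carry a transgenic receptor for ovalbumin (6 aged and 7 young libraries).

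In ATAC-seq the Tn5 transposase cuts into DNA that is not wrapped in nucleosomes, so reads collect at promoters and enhancers. Exhausted CD8 T cells arise under lasting antigen. A progenitor state keeps TCF-1 and the capacity to divide, and gives rise to a terminal state with Tim-3, granzymes and fixed chromatin. The values are normalized reads per peak, with mean ± SD over libraries where a group is summarised. A log2 difference is aged minus young on the log2(value + 1) scale, ± SE. A peak was called where the Benjamini-Hochberg adjusted p of limma was under 0.05. The adjustment was taken over 71756 peaks for endogenous cells and over 84091 peaks of the second table for OT-1 cells. Every adjusted p given is of that kind unless another tool is named. Coordinates are mm10, and a peak carries the name of the protein-coding gene closest to it, up to 100000 bp away. Such a name is a matter of distance only.

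Reads in peaks ran from 22269906 to 26905264 in aged Tterm and from 9927729 to 87558165 in young Tterm. All of these libraries carry the same batch entry, so batches 1 and 2 could not be separated. The labels do not say whether libraries of a group came from separate pools of mice, and the p-values therefore measure the spread between libraries, which may be technical in part. The sort markers followed the gate. At its start Slamf6 had 227 ± 33.0 normalized reads in aged Tterm and 184 ± 16.7 in young Tterm, against 482 ± 72.8 in aged Tprog and 397 ± 64.5 in young Tprog. Inside Havcr2, the gene of Tim-3, the values were 792 ± 48.1 and 698 ± 75.6 in aged and young Tterm, and 442 ± 66.2 and 468 ± 63.6 in aged and young Tprog. Correlations of log2 values between libraries were 0.93 to 0.95 within aged Tterm, 0.93 to 0.97 within young Tterm and 0.92 to 0.97 across the ages, so age did not set the libraries apart as wholes.

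Age moved few peaks past the threshold. Of the tested peaks 6 were called (0.00836%), 5 of them higher (0.00697%) and 1 lower (0.00139%) in aged Tterm. Before adjustment 5122 peaks had p under 0.05 (7.14%), 2929 of them higher (4.08%) and 2193 lower (3.06%). At 4056 peaks (5.65%) the aged and young libraries did not overlap, with aged wholly above at 2247 (3.13%) and wholly below at 1809 (2.52%). The count of calls rested on single libraries: it was 1 without aged replicate 3, 2 without aged replicate 2, 12 without young replicate 1 and 14 without young replicate 3. It was 27 by edgeR and 268 by DESeq2 on the recovered reads, and all 6 peaks were among both. The called peaks lie near Tnfsf11, Sema6d, Odc1, St6gal1 and Fam155a and in a region of chromosome 1 with no gene nearby. None of these 6 contains a gene start of the RefSeq promoter table, and 3 of the genes have a separate start peak in the table. The start sequences of those 3 genes are printed here because the results compare them with the called peak. They are RefSeq promoters of build GRCm38.p6, 250 bases before to 50 bases after a gene start, 5′ to 3′ on the gene's strand. Capitals mark motif letters found on either strand: GC boxes (GGGCGG, present in 35.7% of 32851 such windows) in Odc1, a TATA box (TATAAA, 13.6%) in Tnfsf11 and the letters searched for AP-1 (TGANTCA with N any base, 7.81%) at the start within St6gal1. The match there reads TGAATCA, and binding was not tested. The other letters searched, CACGTG (7.15%), TGACGTCA (1.79%) and CCGGAAGT (3.89%), are in none of the 3 printed windows. St6gal1 has other listed starts, whose windows do not hold the AP-1 letters.

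Odc1, chr12:17544623-17544922, plus strand: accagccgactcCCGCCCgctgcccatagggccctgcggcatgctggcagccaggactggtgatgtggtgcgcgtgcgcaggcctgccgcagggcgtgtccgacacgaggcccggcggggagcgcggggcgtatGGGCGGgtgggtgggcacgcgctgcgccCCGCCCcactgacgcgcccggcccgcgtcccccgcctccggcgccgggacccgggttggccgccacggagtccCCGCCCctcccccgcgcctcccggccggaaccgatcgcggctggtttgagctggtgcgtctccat

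Tnfsf11, chr14:78307994-78308293, minus strand: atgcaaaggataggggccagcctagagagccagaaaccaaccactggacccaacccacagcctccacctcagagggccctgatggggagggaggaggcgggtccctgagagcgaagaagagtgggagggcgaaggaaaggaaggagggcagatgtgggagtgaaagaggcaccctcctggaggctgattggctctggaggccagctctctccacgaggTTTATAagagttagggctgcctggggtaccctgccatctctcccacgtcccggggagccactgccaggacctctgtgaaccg

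St6gal1, start inside the gene, chr16:23290220-23290519, plus strand: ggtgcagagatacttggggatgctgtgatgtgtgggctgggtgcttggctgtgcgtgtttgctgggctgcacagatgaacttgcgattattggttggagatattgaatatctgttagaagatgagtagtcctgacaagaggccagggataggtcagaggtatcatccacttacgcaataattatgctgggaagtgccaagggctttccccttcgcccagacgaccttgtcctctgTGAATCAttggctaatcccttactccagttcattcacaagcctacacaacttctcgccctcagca

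Tnfsf11 encodes RANKL, a membrane-bound and secreted cytokine of the TNF superfamily known for driving osteoclast formation and for acting on dendritic cells. Its called peak (chr14:78329491-78331126, between genes) lies 21448 bp upstream of the start. It held 289, 373 and 372 normalized reads in the aged libraries, against 163, 151, 199, 139 and 114 in the young ones. Every aged library was above every young one. The difference was 1.18 ± 0.18 (adjusted p = 0.0058). A second upstream peak, 47992 bp from the start (chr14:78356035-78357358), held 432, 345 and 454 in aged libraries and 272, 188, 207, 206 and 168 in young ones. These groups did not overlap either, but the difference of 0.98 ± 0.24 was not called (adjusted p = 0.178). At the start peak, which covers the TATA box window printed above, the means were close, with 425 ± 52.6 in aged and 353 ± 23.6 in young libraries (0.26 ± 0.13, adjusted p = 0.71). Of the 11 peaks assigned to Tnfsf11, the called one included, 10 had a positive difference and 3 had p under 0.05 before adjustment. Farther upstream, 4 peaks assigned to Akap11, a scaffold protein of protein kinase A, had differences of 0.76, 0.97, 0.21 and 0.80, none called.

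Sema6d encodes a transmembrane semaphorin that binds plexin A receptors. The called peak (chr2:124636430-124637868, inside the gene, 15713 bp upstream of the nearest annotated start) held 172, 220 and 212 normalized reads in aged libraries, against 99.4, 91.4, 70.7, 71.3 and 66.3 in young ones. Aged libraries were all higher, by 1.34 ± 0.21 (adjusted p = 0.00906). Of 20 peaks assigned to Sema6d, the called one included, 19 had a positive difference, against 50.3% above 0 over all peaks. Before adjustment 9 of the 20 had p under 0.05, against 7.14% over all peaks. Around the called peak, all 12 neighbours within 100 kb had a positive difference, 7 of them with p under 0.05. Its next neighbour (chr2:124633977-124635320) held 168, 208 and 215 in aged and 133, 140, 119, 124 and 87.2 in young libraries, without overlap and without a call (0.71 ± 0.19, adjusted p = 0.274). The strongest peak of the locus by mean, outside the gene at chr2:124732290-124733434, differed little. It held 1167 ± 74.7 in aged and 1094 ± 197 in young libraries (0.11 ± 0.15, adjusted p = 0.935).

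Odc1 encodes ornithine decarboxylase, the enzyme of the first committed step of polyamine synthesis. The called peak covers the far end of the gene (chr12:17551253-17554724, 6380 bp downstream of the start). Its values were 1056, 981 and 1113 in aged libraries and 514, 584, 711, 521 and 535 in young ones. No young library came near the lowest aged library, and the difference was 0.88 ± 0.12 (adjusted p = 0.00333). The GC-rich start showed no such difference: the peak there (chr12:17544103-17545583) held 1561, 1630 and 1314 in aged libraries and 1253, 1681, 1374, 1437 and 1694 in young ones. Those groups overlapped throughout (0.02 ± 0.12, adjusted p = 0.992). The upstream peak at chr12:17505494-17507751, 37122 bp before the start, held 1068, 821 and 1062 in aged libraries against 724, 677, 796, 523 and 452 in young ones, without overlap or call (0.65 ± 0.16, adjusted p = 0.178). Of 13 peaks assigned to Odc1, the called one included, 12 had a positive difference.

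St6gal1 encodes the sialyltransferase that caps N-linked glycans with sialic acid. Its called peak (chr16:23287573-23288646, inside the gene) held 169, 184 and 138 normalized reads in aged libraries and 76.9, 53.2, 77.4, 77.3 and 46.6 in young ones. The groups were separate, with a difference of 1.31 ± 0.23 (adjusted p = 0.0443). This call was lost in 7 of 19 alternatives, with adjusted p up to 0.361. It lies 1824 bp before the internal start whose sequence holds the AP-1 letters. The small peak over that start (chr16:23290102-23290551) held 41.3, 61.4 and 30.7 in aged libraries, against 3.75, 19.0, 10.9, 16.7 and 7.16 in young ones. This was again a full separation, at low counts, and was not called (1.99 ± 0.43, adjusted p = 0.139). At the main start of the gene (chr16:23223204-23226826) the values were 658, 551 and 610 in aged libraries against 484, 460, 465, 488 and 391 in young ones, a separation of 0.41 ± 0.12 that was not called (adjusted p = 0.394). Of 24 peaks assigned to St6gal1, the called one included, 18 had a positive difference and 6 a negative one.

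Fam155a encodes an auxiliary subunit of the NALCN sodium leak channel. It gave the single called loss, at a peak between genes (chr8:9824102-9824945, 50773 bp from the gene). The peak held 14.6, 20.01 and 15.7 normalized reads in aged libraries, against 105, 141, 78.2, 144 and 143 in young ones, a difference of -2.77 ± 0.35 (adjusted p = 0.000874). The lowest young library was well above the highest aged one. Both neighbours within 100 kb were lower too. The one at chr8:9810852-9811581 held 7.75, 32.4 and 26.5 in aged libraries and 129, 205, 153, 176 and 161 in young ones (-3.03 ± 0.73, adjusted p = 0.178). The other, at chr8:9827623-9827904, held 10.3, 8.28 and 7.46 in aged libraries, against 35.6, 33.4, 37.0, 64.4 and 47.2 in young ones (-2.17 ± 0.73, adjusted p = 0.491). At both, aged and young libraries were fully apart, while the 5 peaks inside the gene body all had overlapping values.

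The called region without a gene nearby (chr1:98727437-98728153) was close to closed in young Tterm. It held 52.5, 47.6 and 55.5 normalized reads in aged libraries, against 5.63, 4.57, 4.21, 11.4 and 11.3 in young ones (2.75 ± 0.43, adjusted p = 0.00906). The peak assigned to Slco6d1, a member of the organic anion transporter family, lies on the same chromosome (chr1:98589146-98590341). It held 101, 53.1 and 54.7 in aged and 22.5, 18.5, 24.4, 18.2 and 7.76 in young libraries, separate but not called (1.90 ± 0.34, adjusted p = 0.0634). Each has 1 tested neighbour within 100 kb, with a difference of -0.51.

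**Figure D1:**
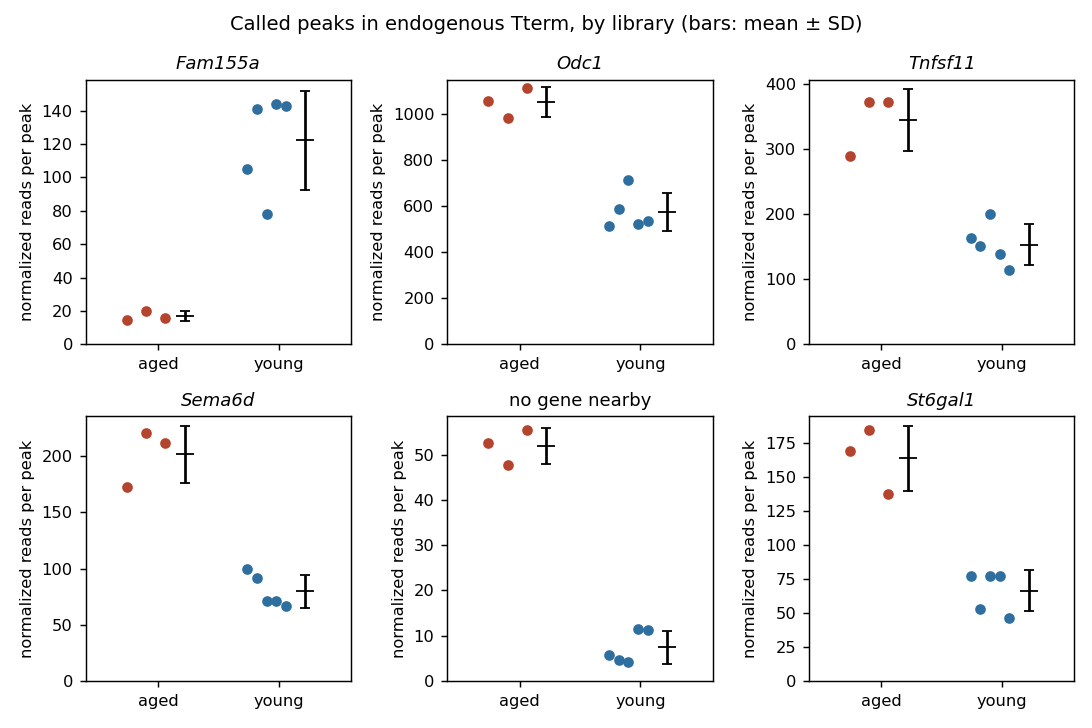
Normalized reads per peak in each endogenous Tterm library at the 6 called peaks; points are libraries (3 aged, 5 young) and bars are mean ± SD. At Fam155a the aged libraries sit between 14.6 and 20.01 and the young ones between 78.2 and 144; at the other 5 peaks all aged libraries lie above all young ones.

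**Figure D2:**
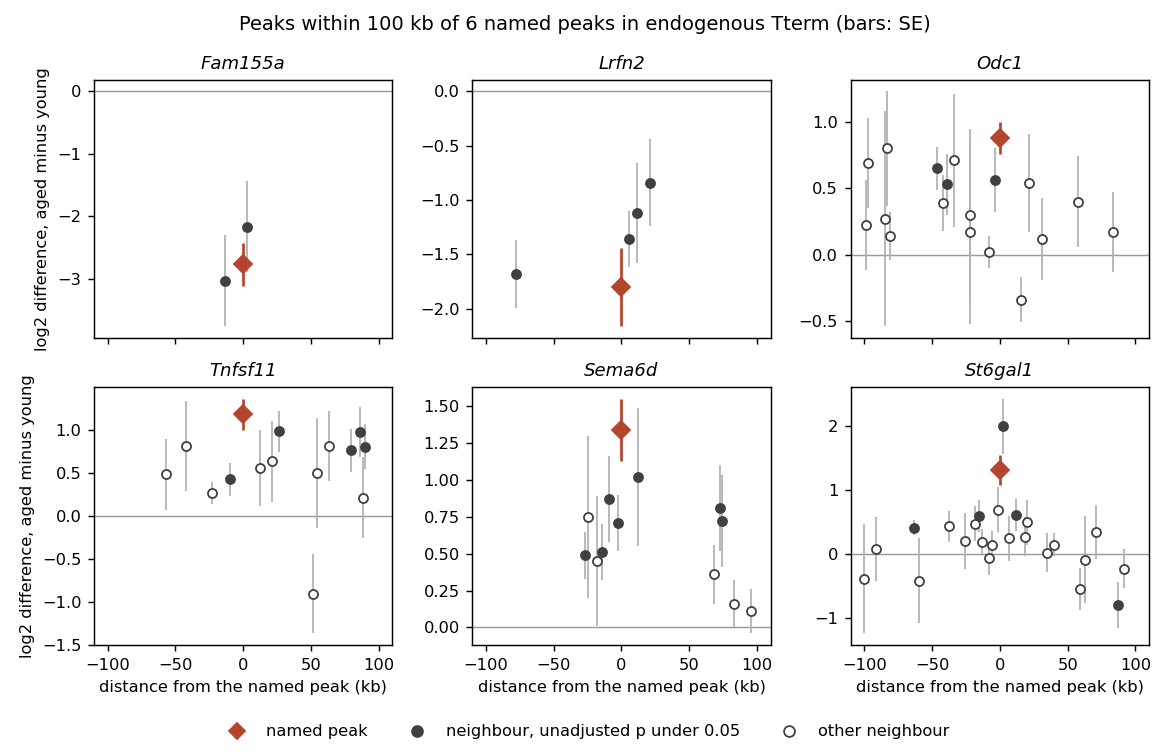
Log2 difference, aged minus young Tterm, of each tested peak within 100 kb of 6 named peaks, against its distance from the named peak; bars are SE and filled circles have p under 0.05 before adjustment. All neighbours are below 0 at Fam155a (2 of 2) and Lrfn2 (4 of 4) and above 0 at Sema6d (12 of 12), while Odc1 has 17 of 18, Tnfsf11 13 of 14 and St6gal1 17 of 24 above 0.

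Just short of the threshold stood 10 higher and 10 lower peaks, taken by lowest p among peaks whose libraries did not overlap. None was called, and their adjusted p ran from 0.0634 to 0.145. Among the higher ones were 3 signalling genes. Pik3ap1, an adaptor that links receptors to PI3-kinase, held 362, 293 and 182 in aged libraries and 97.5, 106, 139, 127 and 87.8 in young ones (1.28 ± 0.24, adjusted p = 0.0786). Sla, an adaptor that dampens T cell receptor signalling, held 213, 143 and 133 in aged against 90.0, 102, 77.4, 79.6 and 69.2 in young libraries (0.93 ± 0.19, adjusted p = 0.103). Dgki, a diacylglycerol kinase gene, held 84.4, 82.1 and 63.8 in aged against 13.1, 16.8, 26.1, 48.5 and 13.1 in young libraries (1.83 ± 0.36, adjusted p = 0.0876). Around the Dgki peak all 7 neighbours within 100 kb had a positive difference. A distal peak of Il2, the T cell growth factor gene, 47006 bp upstream of its start, held 463, 374 and 377 in aged and 315, 262, 221, 189 and 176 in young libraries (0.82 ± 0.16, adjusted p = 0.0958).

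Of these 10 higher peaks, 3 covered gene starts. Sp110, a nuclear body protein induced by interferon, held 1343, 1648 and 1269 at its start in aged libraries and 834, 1001, 950, 846 and 923 in young ones (0.63 ± 0.12, adjusted p = 0.0876). It belongs to a gene family with near-identical copies, so the placement of its reads is uncertain. Epha3, an ephrin receptor kinase gene, held 132, 77.3 and 139 in aged and 50.6, 36.6, 32.8, 23.5 and 38.2 in young libraries (1.64 ± 0.32, adjusted p = 0.0893). Fhit, a nucleotide hydrolase gene, held 248, 126 and 217 in aged and 103, 53.9, 119, 67.5 and 44.8 in young libraries (1.37 ± 0.27, adjusted p = 0.0958). Its groups were the closest of the 3, with 126 as the lowest aged and 119 as the highest young value. The remaining higher peaks were assigned to Fndc3b (1.09 ± 0.22) and A530032D15Rik (1.12 ± 0.21).

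Among the 10 lower peaks, 3 belonged to Lrfn2, the gene of a synaptic adhesion protein. The peak at chr17:49009025-49010129 held 35.3, 42.8 and 49.7 in aged libraries and 60.0, 223, 177, 175 and 177 in young ones (-1.80 ± 0.36, adjusted p = 0.105). The other 2 Lrfn2 peaks had differences of -1.68 ± 0.31 and -1.36 ± 0.26. In each of these peaks the lowest young library was replicate 1, the shallowest of the 8, at 60.0, 67.5 and 156 normalized reads; the part of depth in this was not tested. Wdfy2, an endosomal protein gene, held 32.7, 12.4 and 15.7 in aged and 80.6, 113, 90.0, 88.7 and 74.0 in young libraries (-2.19 ± 0.42, adjusted p = 0.0876). Art2b, a surface ADP-ribosyltransferase of T cells, had a peak upstream with 142, 122 and 156 in aged and 227, 299, 204, 290 and 265 in young libraries (-0.87 ± 0.19, adjusted p = 0.145). The others were assigned to Stx2, Osbpl9, Cpeb3 and Gm5861 and to a region of chromosome 2 with no gene nearby.

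The Gm5861 peak lies in a stretch of chromosome 5 where aged Tterm were lower throughout (chr5:10866008-11974045, a stretch chosen after its values were seen). Here all 32 tested peaks had a negative difference. Of these, 28 had p under 0.05 before adjustment, against 3.06% of all peaks that were lower at that level. At 21 the ages did not overlap, against 2.52% of all peaks with aged wholly below. None was called, and the median difference was -0.70. The reads summed over the stretch were 6898, 6431 and 6475 in aged libraries and 8417, 12881, 12322, 11026 and 9347 in young ones. No young library reached down to the aged range. At the Gm5861 peak itself (chr5:11127545-11129169) the values were 400, 394 and 332 in aged against 574, 773, 729, 688 and 630 in young libraries (-0.85 ± 0.16, adjusted p = 0.0796). Genes of this stretch, such as those of the Speer family, exist in near-identical copies, and the labels do not say how reads that fit several copies were handled. The placement of reads among the copies is therefore uncertain, and peaks of the copies may not be independent of one another. The same holds for the Sp100 gene family on chromosome 1. In that second stretch (chr1:84963768-85698628, also chosen after its values were seen) 39 of 62 peaks had a positive difference, and 9 had p under 0.05 before adjustment, each higher (4.08% over all peaks). That holds for the stretch as bounded: the next Sp100 peak, chr1:85702615-85704138, was lower, with 759 ± 48.2 in aged and 928 ± 107 in young libraries (-0.28 ± 0.12, adjusted p = 0.642). The peak of lowest p in the stretch, at A530032D15Rik, held 326, 515 and 268 in aged and 171, 158, 160, 128 and 212 in young libraries.

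Other libraries of the study can be set beside these. The Tprog values did not enter the Tterm difference, but Tprog and Tadys libraries shared the model that set its error, and the 2 compared groups alone gave 27 calls; the OT-1 libraries were fitted apart. In Tprog the age comparison called 119 peaks (0.166%), 59 higher (0.0822%) and 60 lower (0.0836%) in aged cells. In OT-1 Tterm it called 224 of 84091 (0.266%), 150 higher (0.178%) and 74 lower (0.088%). Both counts rested on single libraries: with 1 left out, Tprog had 15 (without aged replicate 1) to 186 (without aged replicate 2) and OT-1 Tterm 106 (without aged replicate 3) to 742 (without aged replicate 6), and OT-1 libraries of batch 4 & 5 alone gave 2275. All 6 peaks called in Tterm had the same sign in both, though endogenous Tprog and Tterm libraries may come from the same mice. Fam155a was called in Tprog as well, with 12.9 ± 2.33 normalized reads in aged and 69.2 ± 14.6 in young cells (n = 3 and 4; -2.33 ± 0.37, adjusted p = 0.0121). In OT-1 Tterm it had 19.9 ± 24.7 in aged and 51.5 ± 27.8 in young libraries (-1.64 ± 0.51, adjusted p = 0.272). The region without a gene had 102 ± 10.6 in aged and 32.4 ± 14.3 in young Tprog, and 65.9 ± 37.7 in aged and 15.6 ± 10.3 in young OT-1 Tterm; neither passed (adjusted p = 0.096 and 0.133). Odc1 differed by 0.44 ± 0.13 in Tprog and by 0.21 ± 0.15 in OT-1 Tterm, Tnfsf11 by 0.69 ± 0.18 and 0.48 ± 0.23, Sema6d by 0.50 ± 0.22 and 0.83 ± 0.20, and St6gal1 by 0.91 ± 0.24 and 0.30 ± 0.19, none of them called. These smaller values do not show that the subsets differ: the test of age by subset called 0 of 71756 peaks (0.0%) by limma, with 5676 at p under 0.05 before adjustment (7.91%), 0 by edgeR and 19 by DESeq2.

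Of the 20 peaks just short of the threshold, 18 had the same sign in Tprog and 18 in OT-1 Tterm. In Tprog 4 of them were called, all higher in aged cells: Pik3ap1 (266 ± 36.3 in aged and 78.3 ± 20.8 in young Tprog, 1.78 ± 0.25, adjusted p = 0.00682), Epha3 (1.95 ± 0.34, adjusted p = 0.0194), Fndc3b (1.26 ± 0.23, adjusted p = 0.02) and Sp110 (0.68 ± 0.13, adjusted p = 0.0246). In OT-1 Tterm only Gm5861 was called among them (173 ± 31.1 in aged and 363 ± 105 in young libraries, -1.04 ± 0.20, adjusted p = 0.0173). Along the chromosome 5 stretch, 31 of 32 peaks had a negative difference in Tprog (median -0.45, none called), and 30 of 31 matched peaks had one in OT-1 Tterm (median -1.04, 19 called lower). Stx2 went the other way in both, with 7.61 ± 4.71 in aged and 37.0 ± 15.3 in young Tterm, against 35.3 ± 6.11 in aged and 26.8 ± 8.13 in young Tprog.

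Read in the opposite direction, peaks called for age elsewhere kept their sign in Tterm more often than not. Of 59 peaks higher in aged Tprog, 42 (71.2%) were above 0 in Tterm, with a median of 0.26 there against 1.27 in Tprog. Of 60 lower in aged Tprog, 53 (88.3%) were below 0, with a median of -0.37 against -1.37, and 1 of them, at Fam155a, was called. OT-1 Tterm gave 95 matched peaks that were higher with age, 75 of them (78.9%) above 0 in endogenous Tterm. It gave 76 that were lower, 53 of them (69.7%) below 0. Of those 76, 19 lay in the chromosome 5 stretch, where read placement is uncertain and all 32 tested peaks were below 0 in Tterm. The 76 are therefore not spread evenly over the genome. Over all tested peaks 50.3% were above 0 and the median was 0.00. Endogenous Tprog and Tterm libraries carry the same batch entry and may come from the same mice. Their age comparisons may therefore not be independent, which was not tested.

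**Figure D3:**
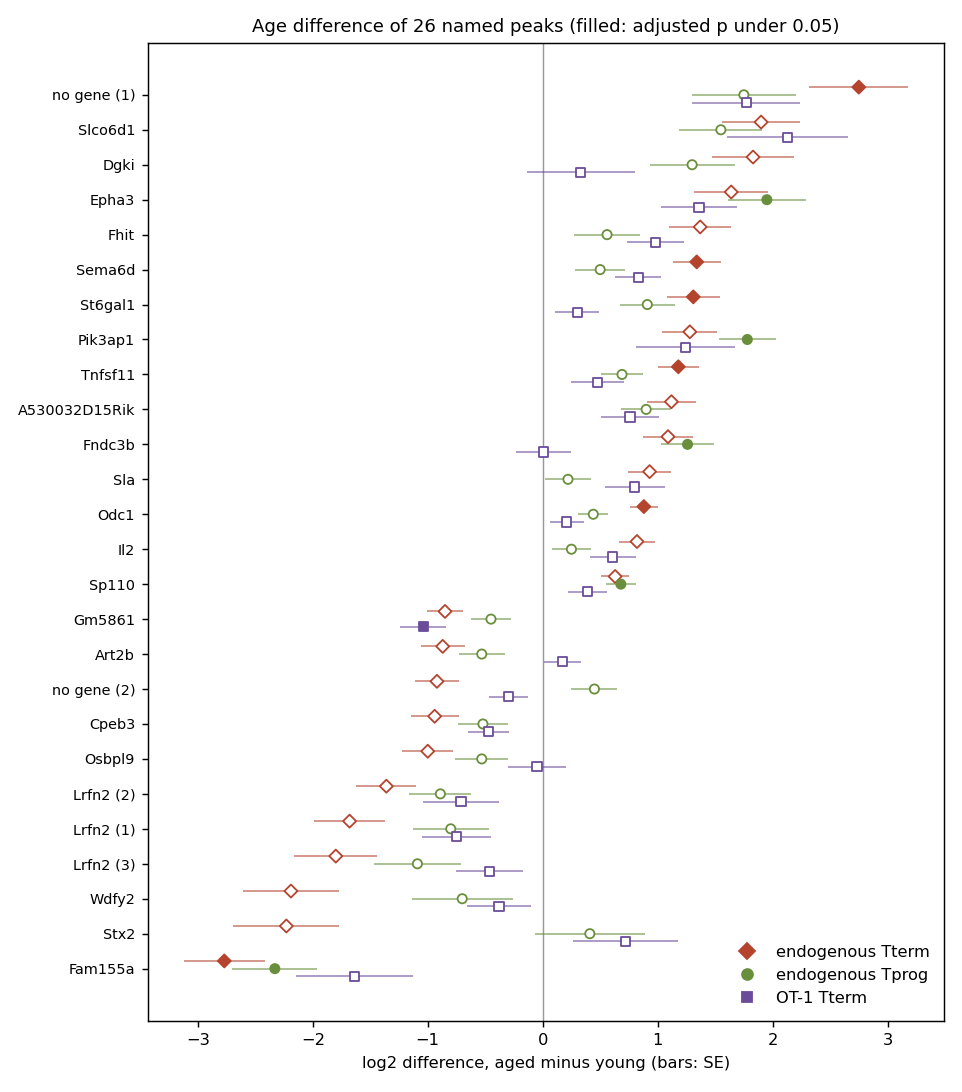
Log2 difference, aged minus young, of the 6 called peaks and the 20 peaks just short of the threshold in endogenous Tterm, endogenous Tprog and OT-1 Tterm; bars are SE, and filled symbols have an adjusted p under 0.05. Fam155a is filled in both endogenous subsets, and Stx2 is the only peak that is negative in Tterm and positive in both others.

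The gene lists were read by counts and medians. Of the 309 peaks assigned to 19 progenitor exhausted genes, 32 had p under 0.05 with a higher value in aged Tterm and 4 with a lower one, against 4.08% and 3.06% of all peaks, and none was called. Their median difference was 0.14, with 70.2% above 0, against 0.00 and 50.3% over all peaks. The list of CD4 and regulatory T cell genes leaned the same way, with 71.0% of 69 peaks above 0, a median of 0.08, and 3 higher and 0 lower at p under 0.05. Its mean log2 level was higher in aged libraries by 0.14, and that of the progenitor list by 0.15; the part of such cells in the result was not tested. Ccr7, the lymph node homing receptor gene, held 394, 386 and 342 at a peak between genes in aged libraries and 253, 217, 277, 246 and 238 in young ones (0.60 ± 0.14, adjusted p = 0.153). Xcl1, a chemokine gene that attracts cross-presenting dendritic cells, held 669, 558 and 548 at its start in aged and 463, 423, 483, 321 and 272 in young libraries (0.62 ± 0.19, adjusted p = 0.383). Tcf7, which encodes TCF-1, held 270, 312 and 307 at its start in aged and 212, 190, 231, 211 and 248 in young libraries (0.44 ± 0.15, adjusted p = 0.49). These 3 separated the ages without being called. Bach2, a repressor that restrains effector genes, held 212, 259 and 110 in aged and 86.3, 80.6, 146, 80.4 and 58.5 in young libraries, and its groups overlapped (1.07 ± 0.26, adjusted p = 0.205).

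The progenitor levels stayed far from those of Tprog. The mean log2 level over the list was 6.96, 6.91 and 6.90 in aged Tterm and 6.92, 6.83, 6.77, 6.69 and 6.62 in young Tterm, with overlap, while aged Tprog averaged 7.54 ± 0.09 and young Tprog 7.48 ± 0.07. The young library nearest to the aged ones was again the shallowest, replicate 1. Peaks that separate the subsets in the OT-1 table, taken from young OT-1 libraries only (6413 of 84091 peaks called in Tterm against Tprog, 7.63%, with 3412 higher, 4.06%, and 3001 lower, 3.57%), were read in the same way. The 2833 matched peaks higher in OT-1 Tprog had a median age difference of 0.16 in endogenous Tterm, with 430 higher and 49 lower at p under 0.05 (4.08% and 3.06% over all peaks). Their mean log2 level was 6.30, 6.25 and 6.28 in aged libraries and 6.28, 6.05, 6.13, 6.07 and 6.04 in young ones, so young replicate 1 lay among the aged libraries. The 3145 peaks higher in OT-1 Tterm had a median of -0.07, with 49 higher and 156 lower, and their library levels overlapped. With 1 library left out the first median ran from 0.14 to 0.20 and the second from -0.11 to -0.03. With equal totals they were 0.21 and -0.02, against 0.05 over all peaks. In endogenous Tprog the peaks higher in OT-1 Tprog went the other way, with a median age difference of -0.11. Their mean log2 level was 7.36 ± 0.13 in aged and 7.51 ± 0.09 in young Tprog. The peaks higher in OT-1 Tterm had a median of 0.05 in endogenous Tprog. Fewer cells of a state and less accessibility per cell cannot be told apart in bulk libraries. A carry-over of Slamf6+ cells into the gate was not tested; the strongest Slamf6 peak held 352 to 359 normalized reads in aged and 274 to 405 in young libraries.

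**Figure D4:**
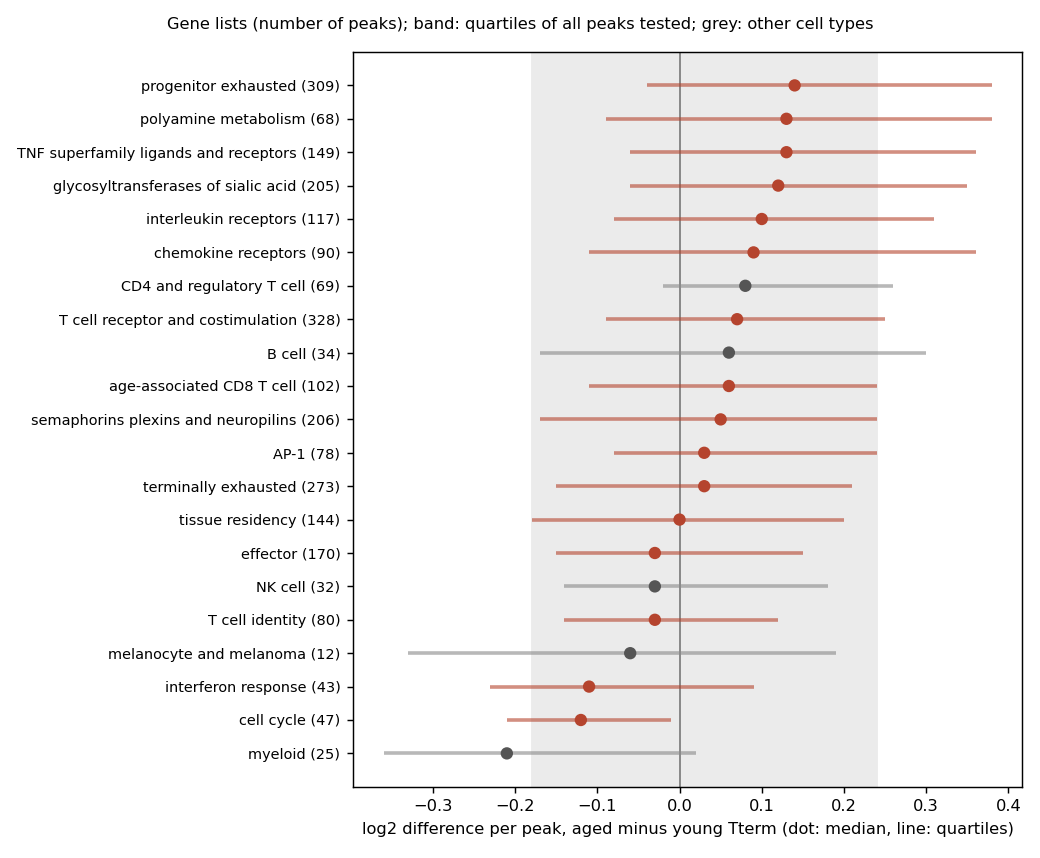
Median (dot) and quartiles (line) of the log2 difference per peak, aged minus young Tterm, for 16 gene lists and 5 lists of other cell types, with the number of peaks in brackets. The progenitor exhausted list has the highest median, 0.14, and the myeloid list the lowest, -0.21; the band marks the quartiles of all peaks, -0.18 and 0.24.

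**Figure D5:**
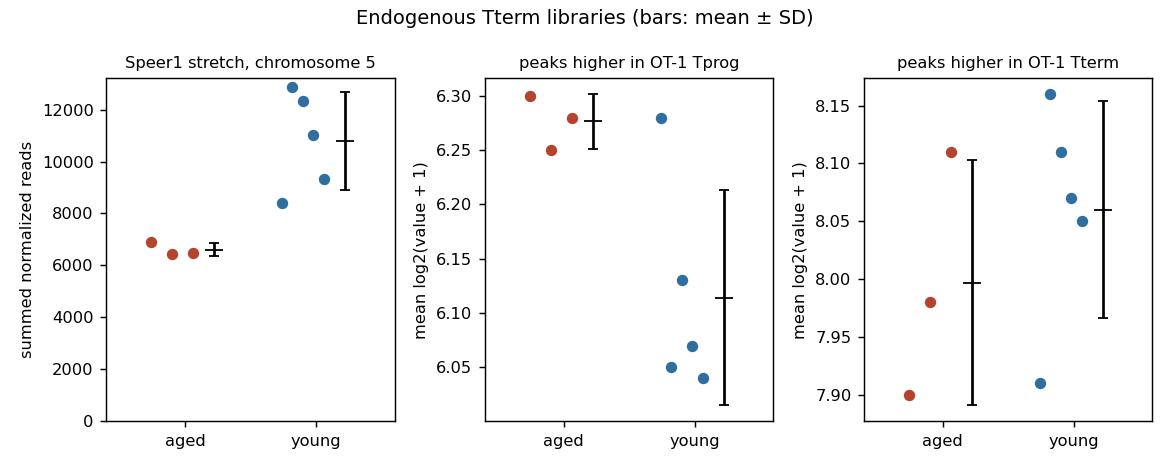
Values of each endogenous Tterm library: summed normalized reads over the chromosome 5 stretch (left), and the mean log2(value + 1) of peaks that were higher in young OT-1 Tprog (middle) or in young OT-1 Tterm (right); bars are mean ± SD, and only the left axis starts at 0. The stretch separates 6431 to 6898 in aged from 8417 to 12881 in young libraries, while in the other panels the groups overlap.

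Over all peaks 4.08% were higher and 3.06% lower at p under 0.05 before adjustment, which is the background of the counts in this paragraph. The list of ligands and receptors of the TNF superfamily had 15 peaks at p under 0.05, all higher, of 149, and a median of 0.13. Beside Tnfsf11, these included Tnfsf10, which encodes the death ligand TRAIL, with 371, 335 and 329 in aged and 218, 212, 222, 221 and 160 in young libraries at a peak 31052 bp upstream (0.75 ± 0.19, adjusted p = 0.223), and peaks of Cd70, Tnfsf4 and Tnfsf8, which encode costimulatory ligands. Interleukin receptor genes had 11 higher and 1 lower of 117 peaks at that level. Il7r, the receptor of the survival cytokine IL-7, had a peak 5104 bp upstream of its start that held 81.8, 120 and 126 in aged and 73.1, 61.1, 69.0, 57.6 and 42.4 in young libraries (0.84 ± 0.28, adjusted p = 0.49). At its start the means were 171 ± 21.6 in aged and 171 ± 26.9 in young libraries, with overlap (0.00 ± 0.18, adjusted p = 0.999). Chemokine receptor genes had 11 higher and 2 lower of 90, among them Ccr2, an inflammatory homing receptor, with 152, 253 and 202 in aged and 114, 149, 70.7, 65.2 and 91.3 in young libraries (1.07 ± 0.30, adjusted p = 0.29). Genes of T cell receptor signalling and costimulation had 20 higher and 3 lower of 328 peaks. Of these, a peak inside Nfkb1, which encodes an NF-kappaB subunit, held 174, 115 and 139 in aged and 69.4, 41.6, 104, 75.8 and 49.6 in young libraries (1.11 ± 0.25, adjusted p = 0.146). A peak inside Cd247, the zeta chain gene, 48506 bp downstream of its start, held 230, 189 and 139 in aged and 95.6, 89.2, 107, 131 and 65.1 in young libraries (0.93 ± 0.21, adjusted p = 0.146). Each is the peak of lowest p of its gene. Of the other peaks within 100 kb, 6 of 24 around Nfkb1 and 0 of 21 around Cd247 had p under 0.05. Around Cd247 8 of these were higher and 13 lower, with a median of -0.04.

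The lists that hold the called enzymes were mixed, beside 4.08% higher and 3.06% lower at p under 0.05 over all peaks. Polyamine genes had 5 higher and 2 lower of 68 peaks at p under 0.05, with a median of 0.13. Of the 5 higher peaks, 4 belonged to Odc1, and the other lay near the end of Slc3a2, a transporter heavy chain, with 117, 234 and 229 in aged and 76.9, 102, 83.3, 62.9 and 80.6 in young libraries (1.19 ± 0.26, adjusted p = 0.14), and Oaz1, the antizyme that degrades ornithine decarboxylase, had a start peak with a difference of -0.29. Genes of sialic acid transfer had 13 higher and 3 lower of 205 peaks, with 5 of the higher ones at St6gal1 itself and 4 at St3gal1. Semaphorins, plexins and neuropilins had 17 higher and 7 lower of 206, and 9 of the 17 belonged to Sema6d.

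Lists of the terminal programme were near the background, which was 4.08% higher and 3.06% lower at p under 0.05 over all peaks. With library totals made equal the median of all peaks moved as well, from 0.00 to 0.05. Terminally exhausted genes had 8 higher and 5 lower of 273 peaks at p under 0.05 and a median of 0.03 (0.08 with library totals made equal); effector genes had 8 and 4 of 170 and a median of -0.03 (0.02 with library totals made equal). A peak inside Entpd1, which encodes CD39, held 181, 179 and 177 in aged and 253, 318, 317, 292 and 226 in young libraries (-0.64 ± 0.23, adjusted p = 0.516). Gzmk held 1124, 1008 and 1318 near its far end in aged and 1491, 1610, 1401, 1467 and 1460 in young libraries (-0.38 ± 0.12, adjusted p = 0.439). Each is the peak of lowest p of its gene, and both separated the ages without being called. Of the other peaks within 100 kb, 0 of 16 around Entpd1 and 3 of 20 around Gzmk had p under 0.05 before adjustment. Pdcd1, which encodes PD-1, held 1262, 1322 and 1645 in aged and 1148, 1356, 1614, 1228 and 727 in young libraries, with overlap (0.25 ± 0.20, adjusted p = 0.858). Gzmb, Tox and Cd8a overlapped as well, with adjusted p of 0.776, 0.614 and 0.761. Cell cycle genes were the list with the fewest peaks above 0, 23.4% of 47, with 4 lower and 0 higher at p under 0.05 before adjustment and a median of -0.12 (-0.06 with library totals made equal). Top2a, the mitotic topoisomerase gene, held 800, 662 and 593 at its start in aged and 866, 834, 849, 1002 and 893 in young libraries (-0.38 ± 0.12, adjusted p = 0.445). Ccna2, which encodes cyclin A2, held 1194, 1093 and 1113 in aged and 1249, 1578, 1670, 1410 and 1483 in young libraries (-0.38 ± 0.14, adjusted p = 0.543). Both the Top2a and the Ccna2 peak lie within 1000 bp of a gene end. Among all peaks of that class 38.0% were above 0, with a median of -0.06. The part of position in the cell cycle list was not tested. Interferon response genes had a median of -0.11 (-0.06 with equal totals), with 2 peaks higher and 2 lower of 43.

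Of the remaining lists, T cell identity genes had 1 higher and 0 lower of 80 peaks (median -0.03, or 0.03 with equal totals), age-associated CD8 T cell genes 4 and 5 of 102 (0.06), tissue residency genes 5 and 4 of 144 (0.00) and AP-1 genes 3 and 0 of 78 (0.03). Over all peaks the shares at p under 0.05 were 4.08% higher and 3.06% lower. Mean log2 levels of the AP-1 list did not overlap between the ages. They were 7.60, 7.56 and 7.50 in aged and 7.47, 7.48, 7.44, 7.38 and 7.39 in young libraries. Levels of the TNF superfamily, polyamine, sialic acid and interleukin receptor lists were also higher in aged libraries without overlap. Those of every other list overlapped, and no test was made of these levels. Other cell types the gate could hold were followed by their own lists. Myeloid genes had the lowest median, -0.21 over 25 peaks, with 0 higher and 3 lower, and the reads summed over them ranged from 7425 to 8230 in aged and from 7815 to 9341 in young libraries. Melanocyte and melanoma genes summed to between 2147 and 2462 in aged and between 2053 and 2470 in young libraries. B cell genes summed to 3265 to 3445 in aged and 3144 to 3568 in young libraries, NK cell genes to 8149 to 9857 and 8417 to 9783, and CD4 and regulatory T cell genes to 15787 to 16991 and 14345 to 17705. All 5 sums overlapped between the ages. A melanocyte gene did separate them: the strongest peak of Mlana, a melanosome protein gene, held 274 to 314 in aged and 178 to 253 in young libraries, while that of Pmel overlapped with 521 to 685 in aged and 574 to 799.8 in young libraries. Tyr, Lyz2, Ncr1 and Foxp3 had no tested peak, and the strongest Csf1r peak held 2.76 to 11.2 normalized reads in aged and 3.85 to 14.3 in young libraries. Their part in the results was not tested.

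By position, peaks within 1000 bp of a gene end, either start or stop, leaned lower with age. Of 14336 such peaks 449 were higher and 760 lower at p under 0.05, with a median of -0.06 and 38.0% above 0. Over all peaks 4.08% were higher and 3.06% lower at that level, and 50.3% were above 0. Inside genes 1334 of 31147 were higher and 770 lower, and between genes 1146 of 26273 were higher and 663 lower, with medians of 0.03 in both classes. The share of all normalized reads that fell near gene ends was 47.3%, 45.2% and 44.2% in aged libraries and 46.0%, 47.4%, 46.3%, 47.5% and 47.6% in young ones. These ranges overlapped, with 45.6 ± 1.60% in aged and 46.9 ± 0.754% in young libraries, and an exact two-sided permutation test gave p = 0.143, where 0.0357 is the smallest it could give.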

How the data were processed

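The authors deposited, as signal per peak, reads divided by a size factor for each library, in 1 table of 17 endogenous libraries (73610 peaks, median width 909 bp) and another of 21 libraries that holds OT-1 cells. Per the submitters' processing notes, the build was mm10 and the tools were MACS2 2.1.1, DESeq2 1.28.1, Bowtie2 2.2.9, SAMtools 1.3.1 and Picard 2.8.0; read shifting and peak merging were not described. Per the labels, sorted cells were pooled, with 5000 to 50000 cells per library, and sequenced as 50 bp pairs. Whole reads were recovered for 100% of values (tolerance 0.02 reads) and served for depth and count tests only.

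Peaks with a table mean of 10 or more were tested. Values were taken as log2(value + 1), which understates changes at low peaks, and fitted with limma 3.58.1 (R 4.3.3) with an intensity trend, all 17 libraries in 1 model. The OT-1 table had its own model with a term for batch 6, and its peaks were matched where 0.5 of the shorter peak overlapped. Alternatives were pseudocounts of 0.5 and 5, other filters and scalings, array weights, a replicate block, DESeq2 1.42.0, edgeR 4.0.16, a fit restricted to both compared groups and each library left out. The fit was tested on simulated data. Peaks were named by RefSeq GRCm38.p6 genes (21887, of which 17492 have a listed start). Named peaks were every call and the 10 of lowest p per direction without overlap (higher group averaging at least 30). The 12 leading list genes and 9 set markers were added, each at its peak of lowest p. Other peaks given by library were chosen after their values were seen. Members and lists were chosen with earlier results of these data known.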

Additional observations from a re-analysis of the deposited data

Results flagged for a closer look

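At the Tnfsf10 peak 31052 bp upstream of the start, young replicate 5 stood apart from its group, at 160.0 normalized reads, while the other young libraries lay between 212 and 222 and the aged libraries between 329 and 371. Of 43 groups of libraries examined this way 1 was found, and chance picks out about 1 in 20.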

How the results depend on the processing

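For aged against young Tterm, 6 calls became 12 with equal totals, 97 with array weights, 27 with the compared groups alone, 27 with edgeR and 268 with DESeq2, and 1 to 14 with a library left out. The replicate block left 0 calls (3550 peaks with p under 0.05 before adjustment), 43 in Tprog; deviations of same-numbered libraries correlated at -0.01, -0.22 and -0.02 between aged and young Tterm and between -0.27 and 0.06 for Tterm with Tprog or Tadys of one age. None was over 0.1, and the main fit did not pair libraries by number. Some differently numbered libraries correlated more, at 0.26 for aged Tterm replicate 2 with young Tterm replicate 5. Young Tterm replicate 5 with young Tprog replicate 2 gave 0.27. Deviations from the mean of so few libraries are tied to one another, so these values cannot decide whether libraries were paired. Tprog had 119 calls, 248 with array weights, 674 with DESeq2 and 15 to 186 with a library left out. Age by subset had 19 with DESeq2 and 0 to 1 with a library left out. OT-1 Tterm had 224 calls, 338 with a pseudocount of 5, 390 with equal totals, 444 with quantile normalization, 1087 with array weights, 419 with the compared groups alone, 802 with DESeq2, 2275 within batch 4 & 5 alone and 106 to 742 with a library left out. The causes of these shifts were not tested.

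Of 114 values of the 6 called peaks under the alternatives, 94 kept the call, 20 lost it and none changed sign. Fam155a was called in 18 of 19 alternatives, Odc1 in 17, Tnfsf11 and Sema6d in 16, the region without a gene in 15 and St6gal1 in 12. Of 684 values of the 36 other named peaks, 92 passed the threshold and none changed sign. All named peaks were picked by lowest p in these data, and at 35 of 42 the ages did not overlap. That choice largely fixed their sign, so a kept sign is no support for them. The gene-end share differed by -2.25 to -0.684 percentage points with a library left out.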
